A study of Mus musculus with 6 samples.

Results

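The genes described here copy DNA in S phase and make its nucleotides, 49 genes in all out of 16749 gene numbers listed in the deposited tables. They were chosen by symbol: the parts of the replication fork, the factors that license origins, and the enzymes that supply deoxynucleotides. All 49 were listed in each of the 6 libraries and all 49 passed the filter on low values. The libraries were made from CD8+ T cells sorted from the iLN (the submitters' abbreviation) of C57BL/6 mice which, per the series title, bore tumors and had been given oxaliplatin, a platinum drug that damages DNA. In 3 libraries the mice carried floxed Id2 alleles without Cre (WT here, Id2f/f in the labels), and in 3 they carried Cd4cre as well (knockout here, Cd4creId2f/f). Both groups therefore share the floxed alleles, the tumor and the drug, and since Cre is present in the knockout group only, its own effect and that of Id2 deletion cannot be told apart. Cd4cre is driven by the Cd4 promoter, which acts in thymocytes before the CD4 and CD8 lineages part, so deletion is not limited to CD8+ cells.

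Id2, an inhibitor of E protein transcription factors, stood at 370.98, 146.76 and 149.01 FPKM in WT libraries 1 to 3 and at 1.67, 2.64 and 2.12 FPKM in knockout libraries 1 to 3. FPKM is the deposited level normalised to transcript length and library size. Libraries held between 7699181 and 8495123 expected counts. The summed FPKM of 7 CD8 T cell markers such as Cd8a and Cd3e lay between 3225.9 and 4348.3. For 14 B cell markers the sum came to 939.6, 3135.5 and 3664.1 FPKM in the WT libraries against 692.5, 2984.8 and 624.4 FPKM in the knockout libraries, so WT library 1 and knockout libraries 1 and 3 were low and the others high, and none of the 13 tested markers passed the test. Dendritic cell markers summed to 23.6, 25.5 and 26.6 FPKM in the WT libraries against 3.63, 6.73 and 5.52 FPKM in the knockout libraries. Of these markers 3 of 4 tested fell, and the lower sums came from those 3, Itgax, Batf3 and Zbtb46. Xcr1 overlapped between groups, at 3.58, 2.31 and 3.01 FPKM in WT and 2.04, 3.37 and 3.03 FPKM in knockout. Flt3 and Siglech were too low to be tested and stayed under 1 FPKM in every library. NK cell markers, some of which activated CD8+ T cells also express, summed to 2981.1, 1823.4 and 2217.0 FPKM against 1254.2, 896.7 and 1153.3 FPKM, and 1 of 3 tested fell. Plasma cell markers summed to 102.0, 107.0 and 105.6 FPKM against 90.2, 101.8 and 90.5 FPKM, and 2 of 5 tested fell, Jchain and Prdm1, the latter also made by activated T cells. Of 2 tested stromal and endothelial markers Sparc fell, and of 4 tested CD4 T cell markers Ctla4, which activated CD8+ T cells also make, rose. Erythroid markers summed to 8.97 and 12.3 FPKM in knockout libraries 1 and 3 and to at most 0.34 FPKM in the other 4. The part of such cells in the results was not tested. Nothing in the labels ties samples to separate animals, so the p-values rest on a spread among libraries that could be technical.

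Replication starts at origins that are loaded with the MCM helicase in G1, a step called licensing that needs the origin recognition complex, CDC6 and CDT1. In S phase CDC45 and the GINS complex turn the loaded MCM ring into the active helicase, polymerases copy both strands with the PCNA clamp, and ribonucleotide reductase and thymidine kinase keep up the supply of deoxynucleotides. Resting lymphocytes keep many of these genes low and raise them after activation, largely through E2F transcription factors, before they divide.

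The promoters of these genes are shown before their levels, because E2F sites are the textbook shared feature of the family and the rule that chose the genes did not use sequence. RefSeq windows of build GRCm38.p6, from 250 bases before to 50 bases after a transcript start, were matched by gene number for 39 of the 49 genes. Some genes, such as Mcm7 and Pold2, had several windows, and a match in any of them was counted. Windows can lie inside the gene, downstream of an annotated start, as those of Cdc6, Lig1 and Mcm7 do. They were searched on both strands for the E2F motif in 4 spellings, TTTCCCGC, TTTGGCGC, TTTCGCGC and TTTGCCGC. In the windows below, each the 160 bases just before the transcript start used, read 5′ to 3′ on the gene's strand, capitals mark these matches. The Cdc6 bases shown lie downstream of the annotated gene start at 98907801. Those of Orc1 and Pola1 lie downstream of the RefSeq gene starts, at 108575705 and 93632387. In Mcm5 and Mcm6 overlapping matches read as a single longer run of capitals.
Mcm5 (chr8:75109349-75109508, + strand): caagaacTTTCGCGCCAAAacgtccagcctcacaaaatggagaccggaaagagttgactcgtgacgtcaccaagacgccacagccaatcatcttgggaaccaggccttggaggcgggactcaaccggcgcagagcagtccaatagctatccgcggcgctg
Mcm6 (chr1:128359706-128359865, - strand): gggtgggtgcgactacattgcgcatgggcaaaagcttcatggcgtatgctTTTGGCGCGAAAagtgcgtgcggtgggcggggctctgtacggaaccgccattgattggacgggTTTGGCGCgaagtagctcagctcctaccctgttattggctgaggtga
Orc1 (chr4:108579294-108579453, + strand): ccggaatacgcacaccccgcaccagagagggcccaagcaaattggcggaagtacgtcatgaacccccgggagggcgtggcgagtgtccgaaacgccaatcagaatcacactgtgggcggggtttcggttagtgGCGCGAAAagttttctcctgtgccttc
Cdc6 (chr11:98907991-98908150, + strand): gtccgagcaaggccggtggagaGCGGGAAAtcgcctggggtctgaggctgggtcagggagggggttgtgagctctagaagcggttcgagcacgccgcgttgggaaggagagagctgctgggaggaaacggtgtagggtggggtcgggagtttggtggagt
Pola1 (chrX:93632156-93632315, - strand): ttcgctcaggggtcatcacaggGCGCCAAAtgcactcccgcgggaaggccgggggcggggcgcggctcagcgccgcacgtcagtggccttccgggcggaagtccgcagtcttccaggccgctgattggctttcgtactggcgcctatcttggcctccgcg

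An E2F motif stood in the window of 14 of the 39 genes (35.9%), against 2.6% of all 27025 genes with a window, 5.01% of the tested genes with one and 1 of 24 mitosis genes (4.17%). The 14 were Mcm3, Mcm5, Mcm6, Mcm7, Orc1, Cdc6, Cdt1, Gins3, Pola1, Pold1, Pole2, Rfc3, Lig1 and Clspn. The CHR motif of late cell cycle promoters (TTTGAA or TTCGAA) was more frequent in the mitosis genes (79.2%) than in the replication genes (20.5%). It stood in 21.7% of all genes and 17.2% of the tested genes with a window. The sequence CCAAT stood in 61.5% of the replication genes, 79.2% of the mitosis genes, 41.1% of all genes and 43.8% of the tested genes. A match is a description of letters and not a site. The 14 genes with an E2F motif had a median log2 fold change of -1.36, with 11 past the threshold, and the 25 without one had -1.12, with 22 past it.

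All 49 genes had a lower fitted level in knockout than in WT libraries, and 43 fell past the threshold, an adjusted p of 0.05 by the edgeR quasi-likelihood test with Benjamini-Hochberg adjustment over the 10890 genes tested. Of all genes tested, 8.77% fell and 3.14% rose by the same test. By DESeq2 44 of the 49 fell, beside 9.82% of all genes, and by limma 39 at a pseudocount of 1 (7.92%) and 38 at 0.1 (7.64%). None of the 49 rose by edgeR, DESeq2 or limma, since all 49 log2 fold changes were negative in each fit. The median log2 fold change, knockout over WT, was -1.22 for the 49 genes and 0.01 for all genes tested. In bulk RNA, fewer cells in S phase and less RNA per cell cannot be told apart. In 45 of the 49 genes every knockout library was below every WT library, against 16.8% of all genes tested. The summed FPKM of the 49 genes was 2169.1, 2152.2 and 2707.1 in WT libraries 1 to 3 and 1024.7, 1288.0 and 977.2 in knockout libraries 1 to 3. The groups did not overlap, and WT library 3 and knockout library 2 were the highest of their groups.

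**Figure D1:**
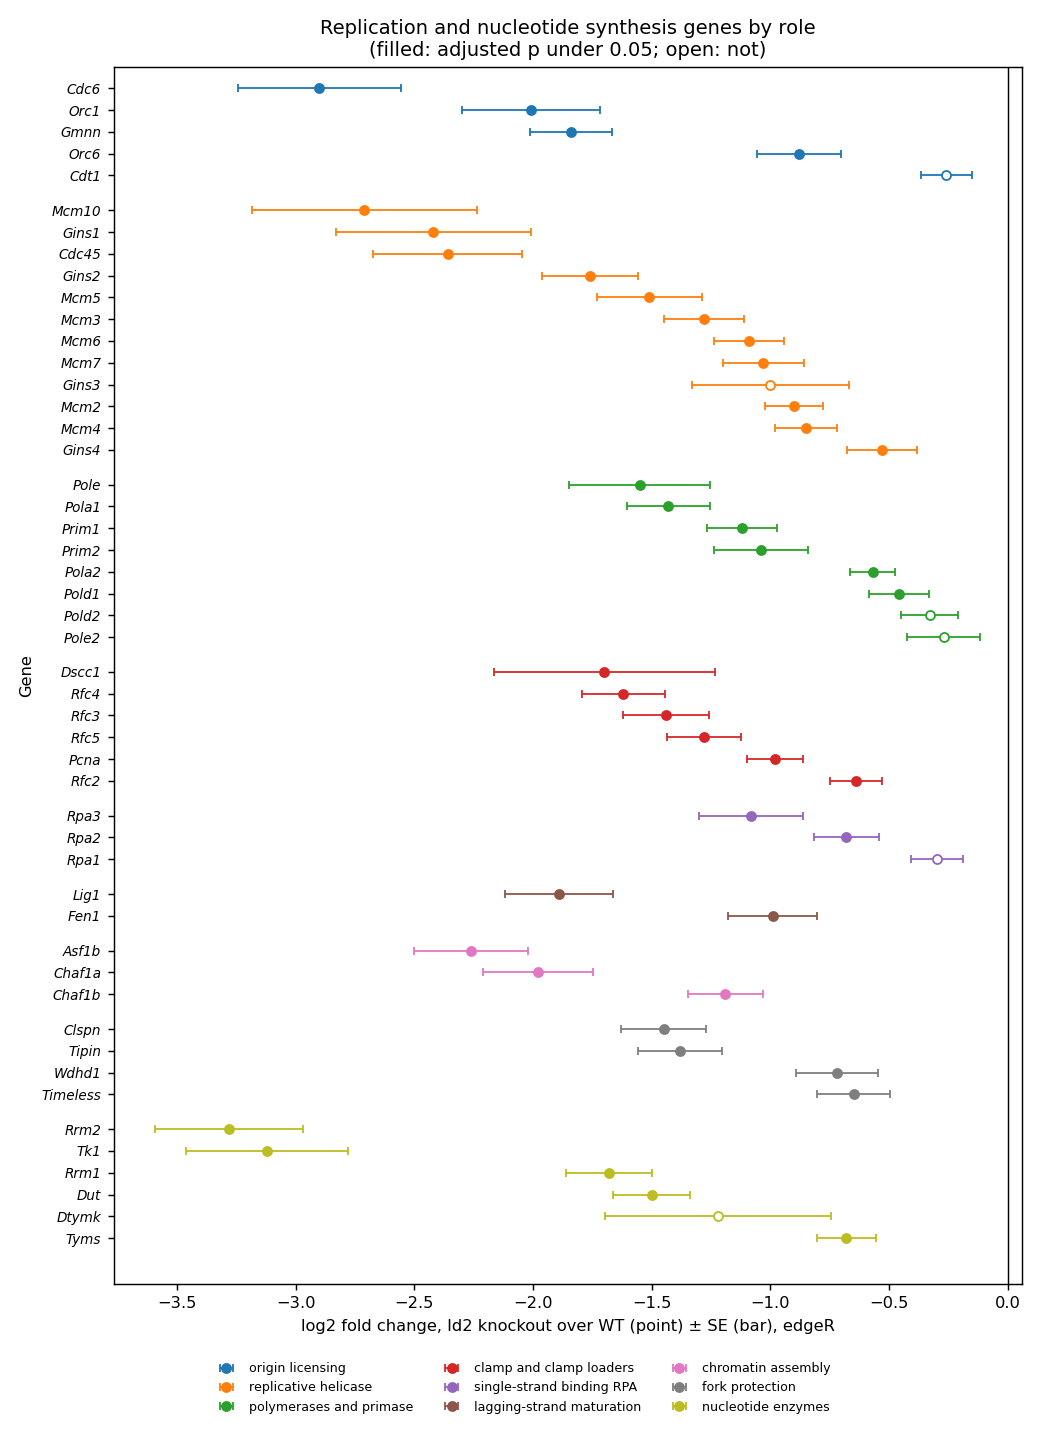
The log2 fold change of each gene, knockout over WT, is plotted as a point with its SE as a bar, grouped and coloured by role, with filled points for an adjusted p under 0.05. All 49 points lie left of 0, from -3.28 for Rrm2 to -0.26 for Cdt1, and the 6 open points are Cdt1, Gins3, Pold2, Pole2, Rpa1 and Dtymk.

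Among the licensing factors 4 of 5 fell, with a median of -1.84. Cdc6, the ATPase that helps load MCM rings onto origins, stood at 13.36, 11.39 and 18.54 FPKM in WT and 1.06, 3.37 and 1.46 FPKM in knockout. Its groups were far apart, with knockout library 2 the highest of its group. The log2 fold change was -2.9 (SE 0.343, adjusted p = 0.000599, edgeR), and -3.5 without knockout replicate 2. Orc1, the largest subunit of the origin recognition complex, stood at 6.72, 6.29 and 9 FPKM in WT and 1.03, 2.47 and 2.03 FPKM in knockout (log2 fold change -2.01, SE 0.29, adjusted p = 0.00173, edgeR). Geminin, encoded by Gmnn, binds CDT1 and blocks a second round of licensing. Gmnn fell from 61.5 ± 5.12 to 17.4 ± 4.98 FPKM (mean ± SD, n = 3 per group), a log2 fold change of -1.84. Orc6 fell by 0.88 on the log2 scale, from 36.23, 35.09 and 41.66 to 17.42, 27.8 and 17.2 FPKM. Its call was lost when WT replicate 3 (adjusted p = 0.0542, edgeR) or either of knockout replicates 1 (0.0506) and 3 (0.0606) was left out.

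Cdt1 itself did not pass. Its levels were 41.71, 39.69 and 46.32 FPKM in WT and 33.34, 40.2 and 34.19 FPKM in knockout, and the groups overlapped (log2 fold change -0.26, SE 0.107, adjusted p = 0.145, edgeR). The ratio of Gmnn to Cdt1 FPKM was 1.34, 1.59 and 1.41 in WT against 0.43, 0.575 and 0.428 in knockout, so the inhibitor's transcript was above that of its target in each WT library and below it in each knockout library. Ratios of partner genes were compared for 11 pairs, chosen after their values were seen, with a two-sided exact permutation test of the log2 ratio over the 20 splits of 6 libraries, whose smallest p is 0.1. The Gmnn to Cdt1 ratio gave p = 0.1 by that exact test (0.11 adjusted over the pairs). Any pair without overlap between groups gets that p, so the test adds nothing to the ratios themselves here or below. The ORC subunits Orc2, Orc3, Orc4 and Orc5, outside the 49, had log2 fold changes of -0.17, -0.08, 0.13 and 0.02, and none passed (adjusted p = 0.394, 0.725, 0.555 and 0.943, edgeR).

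The helicase genes fell in 11 of 12 cases, with a median of -1.18. In the 6 genes of the MCM ring the values lay close together. Mcm6, the most abundant of them, stood at 119.42, 105.82 and 131.14 FPKM in WT and 49.78, 69.87 and 48.85 FPKM in knockout (log2 fold change -1.09, SE 0.148, adjusted p = 0.00129, edgeR). Mcm5 stood at 76.3, 66.83 and 107.57 FPKM in WT and 23.1, 40.81 and 25.7 FPKM in knockout and had the most negative log2 fold change of the 6, -1.51 (SE 0.22). Mcm4 had the least negative, -0.85 (SE 0.131), with 87.17, 76.37 and 96.06 FPKM in WT and 47.29, 56.97 and 41.94 FPKM in knockout. For each of the 3 genes no knockout library reached the lowest WT library. Mcm3, Mcm7 and Mcm2 lay between, at -1.28, -1.03 and -0.9. The summed FPKM of the 6 was 513.7, 467.0 and 641.1 in WT against 233.5, 310.5 and 220.2 in knockout, while Mcm6 kept between 20.5% and 23.2% of the sum in all 6 libraries. The share of Mcm5 was 14.9%, 14.3% and 16.8% in WT against 9.89%, 13.1% and 11.7% in knockout, without overlap.

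**Figure D2:**
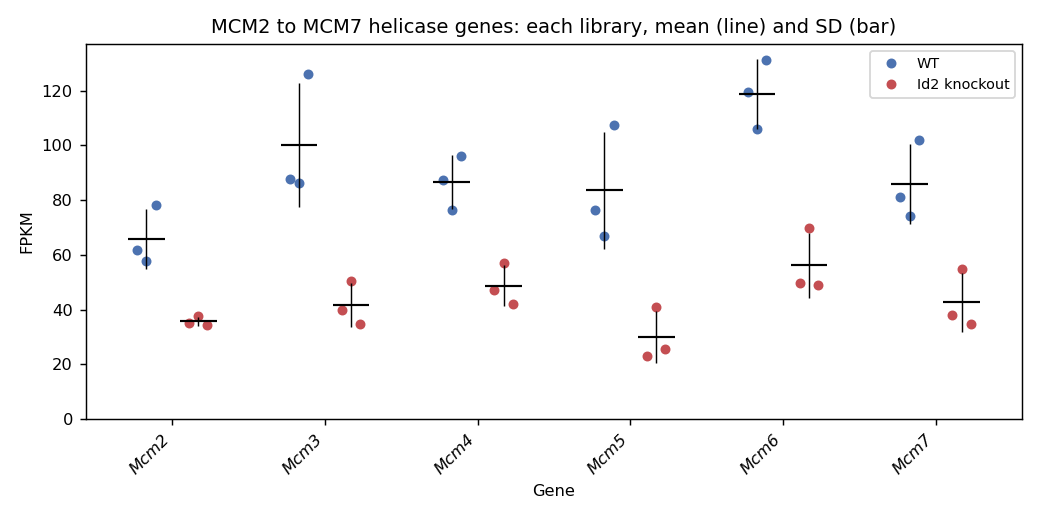
FPKM of the 6 MCM ring genes in each library is plotted as points for WT and Id2 knockout, with the group mean as a line and the SD as a bar (n = 3 per group). In each gene the 3 knockout points lie below the 3 WT points, with means of 118.8 against 56.2 FPKM for Mcm6 and 83.6 against 29.9 FPKM for Mcm5.

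The factors that switch the ring on fell further in several cases. Cdc45 stood at 21.67, 18.41 and 29.03 FPKM in WT and 3.58, 7.73 and 2.89 FPKM in knockout (log2 fold change -2.36, SE 0.314, adjusted p = 0.00113, edgeR). Mcm10, which helps to start unwinding, stood at 4.71, 4.25 and 7.98 FPKM in WT and 0.36, 1.64 and 0.45 FPKM in knockout. Its knockout values rested on 11, 49 and 14 counts, and its log2 fold change of -2.71 became -3.67 without knockout replicate 2. The 4 GINS genes, whose products form a single complex of 4 subunits, differed among themselves. Gins1 and Gins2 fell by 2.42 and 1.76 on the log2 scale, from 7.89 ± 3.49 to 1.69 ± 0.502 FPKM and from 18.7 ± 2.09 to 5.56 ± 1.01 FPKM. The knockout values of Gins1 rested on 8, 11 and 18 counts, and limma on log2(FPKM + 1) gave it a log2 fold change of -1.67. Gins4 stood at 40.94, 48.74 and 51.28 FPKM in WT and 27.82, 41.34 and 29.62 FPKM in knockout, and its groups overlapped. Its log2 fold change of -0.53 (SE 0.148) passed by a narrow margin (adjusted p = 0.0453, edgeR), and the call was lost without any of WT replicates 1 to 3 (0.0546, 0.108 and 0.156) or without knockout replicate 1 (0.148) or 3 (0.193). Gins3 had a log2 fold change of -1 (SE 0.331) and did not pass by edgeR (adjusted p = 0.0826), though it did by DESeq2 (0.0385). The ratio of Gins1 to Gins4 was 0.123, 0.14 and 0.23 in WT against 0.0413, 0.0433 and 0.0722 in knockout (exact permutation p = 0.1, 0.11 adjusted).

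Of the 8 polymerase and primase genes 6 fell, with a median of -0.8. Catalytic and accessory subunits stood at different places for Pole and Pole2 and for Pola1 and Pola2. Prim1 and Prim2 lay close together, as did Pold1 and Pold2. Pole, the catalytic subunit of leading-strand polymerase epsilon, stood at 4.2, 4 and 5.25 FPKM in WT and 1.02, 2.54 and 1.12 FPKM in knockout (log2 fold change -1.55, SE 0.297, adjusted p = 0.00829, edgeR). Its accessory subunit Pole2 stood at 15.57, 13.91 and 14.37 FPKM in WT and 11.32, 14.44 and 11.21 FPKM in knockout, with overlap and an adjusted p of 0.303 (edgeR). The ratio of Pole to Pole2 was 0.27, 0.288 and 0.365 in WT against 0.0901, 0.176 and 0.0999 in knockout (exact permutation p = 0.1, 0.11 adjusted). Pola1, the catalytic subunit of the polymerase that extends primers, fell from 8.06 ± 1.64 to 3.02 ± 0.433 FPKM (log2 fold change -1.43) and its partner Pola2, the most abundant gene of this set, from 69.4 ± 2.42 to 47.3 ± 3.41 FPKM (-0.57). The primase genes Prim1 and Prim2 fell by 1.12 and 1.04 on the log2 scale. The polymerase delta genes among the 49 also lay close to 0, with Pold1 at -0.46 (SE 0.127, adjusted p = 0.0426, edgeR) and Pold2 at -0.33 (SE 0.121, adjusted p = 0.112, edgeR). Pold2 stood at 51.51, 49.31 and 60.86 FPKM in WT and 47.54, 41.21 and 41.32 FPKM in knockout. The call of Pold1 did not survive leaving out WT replicate 1 (0.0717) or WT replicate 3 (0.154), nor knockout replicate 1 (0.144) or knockout replicate 3 (0.132). Pold3, a further delta subunit outside the 49 and named after its value was seen, fell by 0.61 on the log2 scale (adjusted p = 0.0231, edgeR), and lost its call without WT replicates 2 (0.058) or 3 (0.101) or knockout replicates 1 (0.0852) or 3 (0.122). The Pold1 to Pold2 ratio overlapped between groups (exact permutation p = 0.8).

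All 6 genes of the sliding clamp and its loaders fell, with a median of -1.36. Pcna, the clamp that holds polymerases on DNA and the most abundant of the 49 genes, stood at 271.08, 254.96 and 274.23 FPKM in WT and 130.45, 161.01 and 119.06 FPKM in knockout. Both groups were tight and well apart (log2 fold change -0.98, SE 0.117, adjusted p = 0.000639, edgeR). The small loader subunits Rfc3, Rfc4 and Rfc5 fell by 1.44, 1.62 and 1.28 on the log2 scale and Rfc2 by 0.64. Their large partner Rfc1, outside the 49, had a log2 fold change of -0.28 and did not pass (adjusted p = 0.177, edgeR). Dscc1, part of the alternative loader linked to sister chromatid cohesion, stood at 4.8, 7.15 and 5.3 FPKM in WT and 0.57, 3.36 and 1.47 FPKM in knockout, on 6, 34 and 15 knockout counts. It fell by 1.7 on the log2 scale (SE 0.466, adjusted p = 0.0419, edgeR), with a log2 fold change of -2.48 without knockout replicate 2, and it was called neither without WT replicate 1 (0.0588), 2 (0.119) or 3 (0.106) nor without knockout replicate 1 (0.0826) or 3 (0.163).

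The 3 RPA genes, whose products coat single-stranded DNA as a trimer, had log2 fold changes of -0.3 for Rpa1, -0.68 for Rpa2 and -1.08 for Rpa3, in the order of falling subunit size. Rpa1 stood at 73.83, 71.06 and 80.77 FPKM in WT and 67.41, 58.46 and 58.52 FPKM in knockout and did not pass (adjusted p = 0.104, edgeR). Rpa3 stood at 36.83, 40.44 and 41.76 FPKM in WT and 14.28, 26.75 and 16.14 FPKM in knockout, with knockout library 2 apart from the other two. Rpa2 and Rpa3 both lost their calls without WT replicate 3 (adjusted p = 0.0525 and 0.0504, edgeR) or knockout replicate 3 (0.0612 and 0.0635), and all 3 log2 fold changes stayed negative.

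Both genes that join Okazaki fragments fell. The DNA ligase gene Lig1 stood at 28.44, 25.46 and 41 FPKM in WT and 6.39, 11.77 and 7.77 FPKM in knockout (log2 fold change -1.89, SE 0.228, adjusted p = 0.000652, edgeR). Fen1, the flap nuclease, fell from 49.4 ± 4.73 to 25.4 ± 8.08 FPKM (-0.99). The histone chaperones that rebuild chromatin behind the fork also fell, 3 of 3. Asf1b stood at 78.02, 72.48 and 111.53 FPKM in WT and 16.57, 26 and 12.71 FPKM in knockout (log2 fold change -2.26, SE 0.24, adjusted p = 0.00041, edgeR). Its paralogue Asf1a, outside the 49, stood at 30.7 ± 4.04 and 26 ± 1.27 FPKM (-0.25, adjusted p = 0.175, edgeR). The Asf1b to Asf1a ratio was 2.79, 2.05 and 3.87 in WT against 0.659, 0.946 and 0.5 in knockout. Chaf1a and Chaf1b, subunits of chromatin assembly factor 1, fell by 1.98 and 1.19 on the log2 scale.

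The 4 genes that protect and couple the fork fell, with a median of -1.05. Clspn, which encodes claspin, the adaptor of the replication checkpoint, stood at 3.76, 3.97 and 4.84 FPKM in WT and 1.53, 1.59 and 1.53 FPKM in knockout (log2 fold change -1.45, SE 0.18, adjusted p = 0.000742, edgeR). Its knockout libraries hardly differed, and knockout library 2 did not stand out there as it did for Cdc6 or Mcm10. Timeless and Tipin encode partners in a single complex. Tipin, the most abundant of the 4, fell from 47.5 ± 10.7 to 18.5 ± 3.91 FPKM (-1.38), and Timeless from 9.69 ± 1.14 to 6.26 ± 1.1 FPKM (-0.65). Timeless and Wdhd1 (-0.72) lost their calls when WT replicate 3 (adjusted p = 0.101 and 0.109, edgeR) or either of knockout replicates 1 (0.0693 and 0.0865) and 3 (0.0607 and 0.121) was left out, which left 2 of 4 called.

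The most negative log2 fold changes of all 49 genes, those of Rrm2 and Tk1, were in nucleotide supply. Of its 6 genes 5 fell, with a median of -1.59, less negative than those of chromatin assembly (-1.98) and licensing (-1.84). Rrm2, the small subunit of ribonucleotide reductase that cycling cells make in S phase, lies on mm10 chromosome 12 from 24708241 to 24714146. It stood at 109.29, 100.11 and 143.61 FPKM in WT and 8.62, 20.5 and 7.9 FPKM in knockout. The lowest WT library was far above the highest knockout library (log2 fold change -3.28, SE 0.312, adjusted p = 0.000282, edgeR). Rrm1, the large subunit, stood at 64.82, 60.38 and 94.78 FPKM in WT and 21.6, 28.33 and 19.61 FPKM in knockout (-1.68, SE 0.183, adjusted p = 0.000449, edgeR). The ratio of Rrm2 to Rrm1 was 1.69, 1.66 and 1.52 in WT against 0.399, 0.724 and 0.403 in knockout, above 1 in every WT library and below 1 in every knockout library (exact permutation p = 0.1, 0.11 adjusted). Rrm2b, the small subunit used outside S phase, is not among the 49. It stood at 4.06 ± 0.324 and 4.83 ± 0.516 FPKM (log2 fold change 0.24, adjusted p = 0.345, edgeR).

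Thymidylate supply rests on a pair of thymidine kinases and on the enzymes around dUTP and dTMP. The cytosolic thymidine kinase gene Tk1 stood at 34.22, 25.92 and 48.53 FPKM in WT and 3.36, 6.87 and 2.43 FPKM in knockout (log2 fold change -3.12, SE 0.342, adjusted p = 0.000449, edgeR). Its mitochondrial counterpart Tk2, outside the 49, stood at 26.9 ± 4.43 and 30.1 ± 0.471 FPKM (0.15, adjusted p = 0.461, edgeR). Dut, which removes dUTP, fell from 38.8 ± 8.37 to 13.8 ± 2.08 FPKM (-1.5). Tyms, the thymidylate synthase gene, moved less, with 34.06, 30.97 and 42.46 FPKM in WT and 21.63, 23.89 and 22.51 FPKM in knockout (-0.68, SE 0.125, adjusted p = 0.00695, edgeR). Dtymk, which phosphorylates dTMP, stood at 12.13, 64.5 and 65.15 FPKM in WT and 22.55, 15.48 and 20.54 FPKM in knockout. WT library 1, with 84 counts against 451 and 450 in the other WT libraries, lay below all knockout libraries. With a log2 fold change of -1.22 and an SE of 0.477 Dtymk missed the threshold (adjusted p = 0.13, edgeR), and without WT replicate 1 it passed (-1.66, adjusted p = 0.000831, edgeR).

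**Figure D3:**
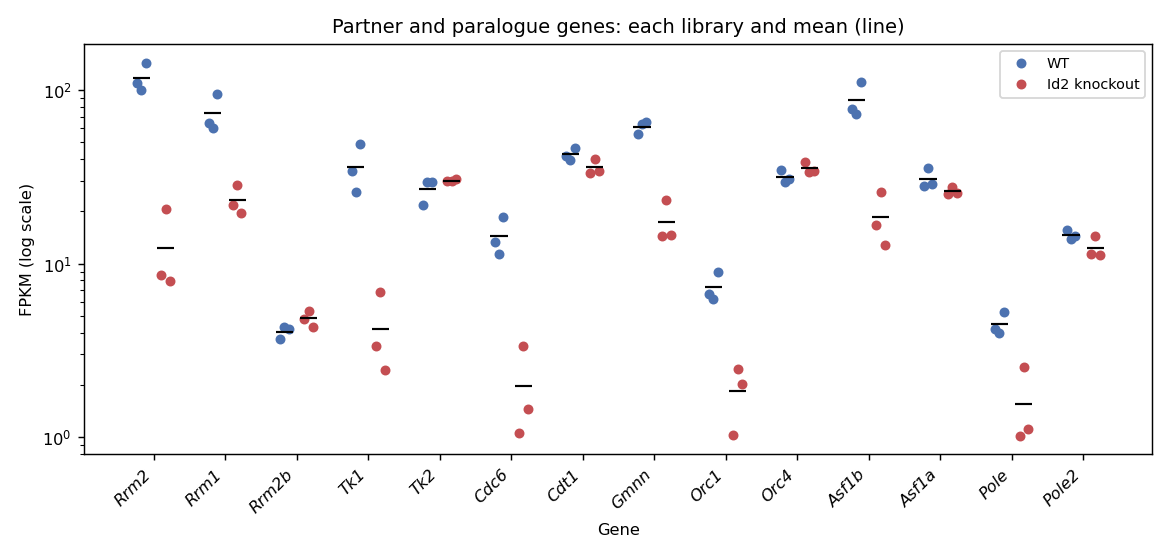
FPKM on a log scale is plotted for partner and paralogous genes, with a point for each WT and Id2 knockout library and the group mean as a line. Rrm2, Tk1, Cdc6, Orc1 and Asf1b lie lower in all 3 knockout libraries and passed the test. Rrm2b, Tk2, Cdt1, Orc4, Asf1a and Pole2 did not pass it. Of these, Asf1a also lies lower in all 3 knockout libraries, and Rrm2b and Tk2 lie higher in all 3.

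Most of the genes had the same highest library inside each group, though such counts were not made over all genes tested. WT library 3 was the highest WT library for 46 of the 49 genes, and knockout library 2 the highest knockout library for 42. Knockout library 2 also held the highest B cell marker sum of its group, 2984.8 FPKM against 692.5 and 624.4. WT library 3 likewise held the highest B cell marker sum of its group, 3664.1 FPKM. WT library 2 had a B cell marker sum of 3135.5 FPKM, against 939.6 in library 1, and was the lowest WT library for 30 genes, where library 1 was the lowest for 19. The summed FPKM of germinal centre B cell markers, most of it from the death receptor gene Fas, lay between 30.9 and 40.2 in the 6 libraries, and none of the 3 tested passed. The part of B cell RNA in these values was not tested beyond the next count. With the log2 B cell marker sum as a covariate, chosen after seeing the data, 40 of the 49 genes fell. The share of all genes that fell in that fit is not reported here. In the edgeR fit without the covariate it was 8.77%. Leaving out knockout replicate 2 left 43 of the 49 genes called, and leaving out WT replicate 3 or knockout replicate 3 left 35. The same 35 genes were called in each of the 6 fits without 1 library and in every other alternative that tested them.

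**Figure D4:**
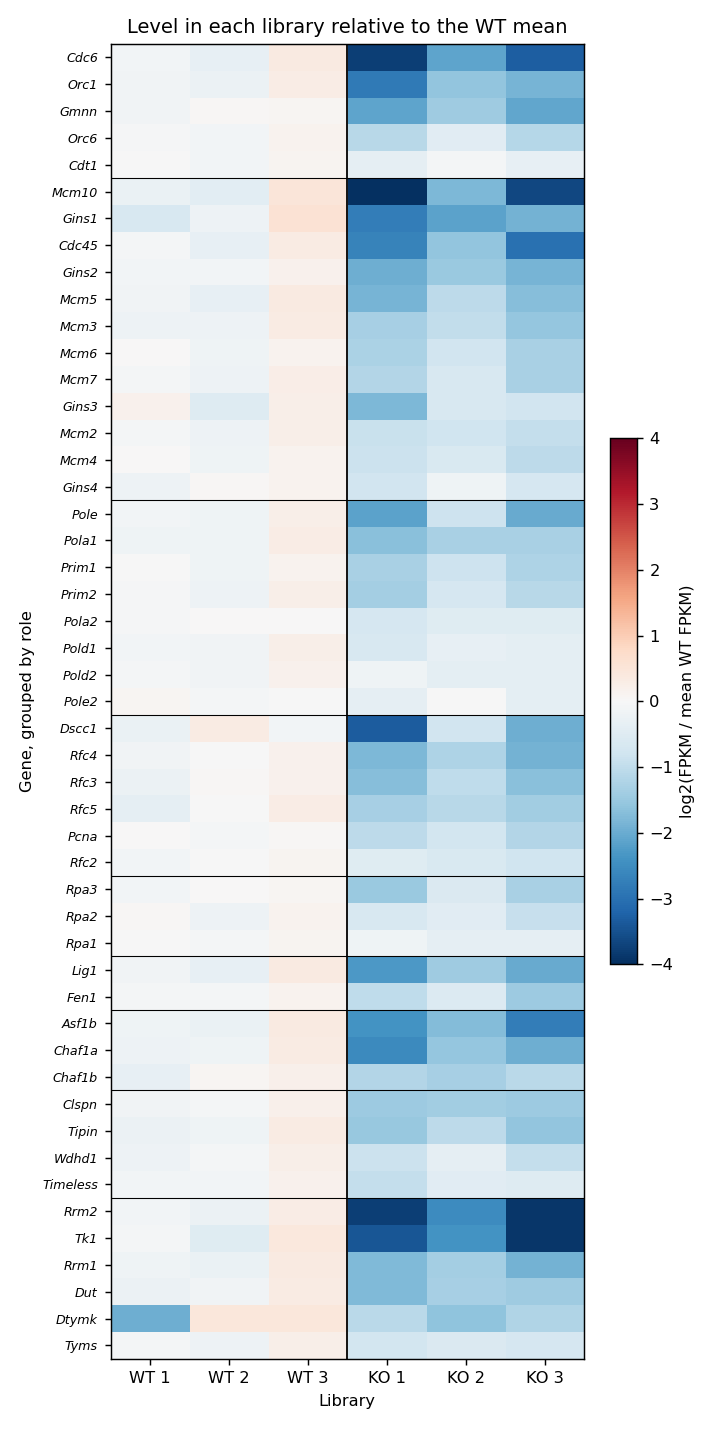
The colour gives log2 of FPKM over the WT mean for each of the 49 genes (rows, grouped by role) in each library (columns). The 3 knockout columns are blue almost throughout, deepest for Rrm2, Tk1, Cdc6 and Mcm10, with knockout library 2 paler for most genes, and Dtymk is low in WT library 1.

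Genes of the same pathways outside the 49 included many that did not pass. Of all genes tested, 8.77% fell. Of 40 other replication factors 15 fell and none rose, with a median of -0.4. By smallest p these were led by Uhrf1, which helps copy DNA methylation behind the fork (43.6 ± 12.1 to 9.72 ± 2.18 FPKM), Rnaseh2b, a subunit of the nuclease that removes ribonucleotides from DNA (23 ± 3.92 to 8.08 ± 1.48 FPKM), and Cdk2, the kinase that drives S phase (23.4 ± 2.17 to 12 ± 1.11 FPKM). Of 35 tested nucleotide genes 7 fell and none rose, with a median of -0.23, among them Dctpp1 (26 ± 4.35 to 9.71 ± 0.455 FPKM) and Cmpk2 (7.44 ± 0.577 to 3.37 ± 0.655 FPKM). These 5 kept their calls in each of the 6 fits without 1 library. The 15 other replication factors became 9, 10 and 8, and the 7 nucleotide genes 3, 5 and 3, without WT replicate 3, knockout replicate 1 and knockout replicate 3. At 3 of 35 the nucleotide genes were near the 8.77% of all genes in the fit of all 6 libraries. Among genes of de novo purine and pyrimidine synthesis, chosen after their values were seen, Paics fell by 0.54 on the log2 scale (SE 0.113, adjusted p = 0.0127, edgeR), a call lost without WT replicate 3 (0.0535) or knockout replicate 3 (0.0678). Cad, Gart and Atic had log2 fold changes of -0.23, -0.2 and 0 and did not pass (adjusted p = 0.416, 0.33 and 0.992, edgeR).

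Mitosis genes, which act after replication, fell in 28 of 28 cases with a median of -2.7, beside 8.77% of all genes tested. The mean of log2(FPKM + 1) over the 49 replication genes was 4.9, 4.92 and 5.27 in WT against 3.66, 4.12 and 3.7 in knockout. Over the mitosis genes it was 4.27, 4.09 and 4.72 in WT against 2.05, 2.65 and 2 in knockout. WT library 3 and knockout library 2 were the highest of their groups in both lists, while the other two libraries of each group changed places between the lists. Whether the lists differ in fold change was not tested. E2f1, which encodes an activator of S phase genes, stood at 6.19, 6.61 and 7.3 FPKM in WT and 7.38, 8.43 and 7.8 FPKM in knockout. Every knockout library was above every WT library, but E2f1 missed the threshold at a log2 fold change of 0.23 (adjusted p = 0.363, edgeR). Of 13 genes of the E2F and retinoblastoma families 6 fell, beside 8.77% of all genes tested. The 6 were E2f2 (-1.13, adjusted p = 0.0163, edgeR), E2f3 (-1.21, adjusted p = 0.0111, edgeR), E2f7 (-3.13), E2f8 (-2.47), Tfdp1 (-0.77) and Rbl1 (-0.67). The count became 5, 4 and 5 without WT replicate 1, WT replicate 3 and knockout replicate 1.

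**Figure D5:**
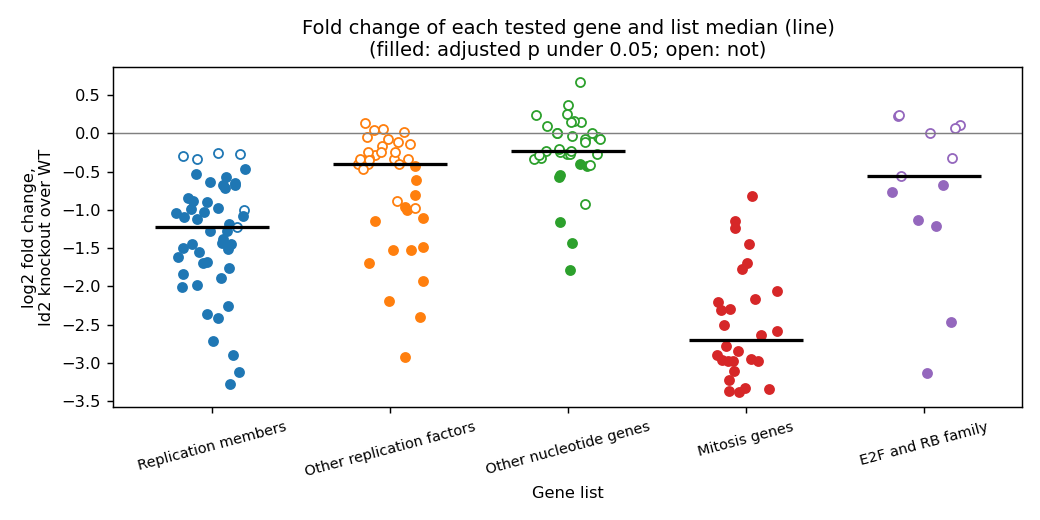
The log2 fold change, knockout over WT, of each tested gene is plotted by list, with the list median as a line and filled points for an adjusted p under 0.05. The medians are -1.22 for the 49 replication genes, -0.4 and -0.23 for the other replication and nucleotide genes, -2.7 for mitosis genes and -0.56 for the E2F and retinoblastoma families.

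Many of these genes sit head to head with another gene. In the GENCODE M21 annotation of GRCm38, 20 of the 49 have a gene on the opposite strand that starts within 1 kb, and 12 such neighbours were tested. Of the 12, 3 fell and 1 rose, beside the 8.77% and 3.14% of all genes. Afmid, which starts 168 bases from Tk1, stood at 9.01, 7.94 and 9.15 FPKM in WT and 7.48, 9.88 and 6.78 FPKM in knockout (log2 fold change -0.13, adjusted p = 0.678, edgeR), beside -3.12 for Tk1. Prkdc, the catalytic subunit of the DNA-dependent protein kinase of end joining, starts 466 bases from Mcm4. It rose from 4.5, 4.77 and 5.57 to 6.2, 8.39 and 7.51 FPKM (0.56, SE 0.125, adjusted p = 0.0173, edgeR), opposite to Mcm4 at -0.85, and lost its call without WT replicate 2 (0.0604) or knockout replicate 3 (0.0758). Pxmp2, a peroxisomal membrane protein gene 120 bases from the start of Pole, stood at 2.57, 2.43 and 2.95 FPKM in WT and 0.61, 1.15 and 0.89 FPKM in knockout. Its log2 fold change of -1.59 was close to the -1.55 of Pole, and its call was lost when WT replicate 3 (0.0767) or either of knockout replicates 1 (0.0693) and 3 (0.0799) was left out. The other 2 that fell, Vps35 beside Orc6 (-0.36) and Umad1 beside Rpa3 (-0.88), kept their calls in 0 and 2 of the 6 fits without 1 library.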

How the data were processed

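Bulk RNA-seq of 6 libraries (3 WT, 3 Id2 knockout) was analysed from 1 deposited table per library. Per the file headers these hold expected counts and FPKM per gene. Per the submitters' processing notes, CASAVA, Bowtie2 and RSEM were used with build mm10; versions and strand setting are not given in the sources used here. A gene missing from a table was set to 0, and expected counts were rounded before the count tests. Without a stated strand setting, reads of the 18 genes whose exons overlap another gene could be shared.

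Genes with FPKM of at least 1 in at least 3 libraries were tested (10890 of 16749) with edgeR 4.0.16 in R 4.3.3 (TMM, quasi-likelihood test, two-sided, Benjamini-Hochberg, threshold 0.05). The SE is the log2 fold change divided by the square root of F. Alternatives were DESeq2 1.42.0, its size factors, other filters, limma 3.58.1 on log2(FPKM + 1) or log2(FPKM + 0.1), a replicate block, leaving out each library, and a B cell covariate added after seeing the data. The script was tested on simulated counts. Named with full values were the most and least changed gene of each role and the 3 smallest p-values of each pathway list, besides partner genes chosen after their values were seen. Some genes that this rule names are not reported here. The 49 genes and all lists were chosen with earlier results of these data known.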

Additional observations from a re-analysis of the deposited data

How the results depend on the processing

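The count of the 49 genes that fell was 43 with edgeR and between 35 and 43 when 1 library was left out, 44 with DESeq2, 42 with DESeq2 size factors, 43 without a filter, 39 of 44 at an FPKM minimum of 5, 39 and 38 with limma at a pseudocount of 1 and 0.1, and 40 with the B cell covariate. Their median ranged from -1.34 to -1.08 over the fits without 1 library. The FPKM filters ask for any 3 of the 6 libraries, so a gene can pass through its WT libraries alone. At the minimum of 5, Orc1 and Cdc6 passed in that way, so that count is no separate support. Over all genes, 1297 passed, and between 601 and 1562 when 1 library was left out: 685 without WT replicate 3 and 601 without knockout replicate 3. Same-numbered libraries had correlations of their deviations of 0.118, 0.075 and -0.0303, within the range of -0.187 to 0.135 for libraries with different numbers. Of 6 libraries 2 correlated best with their own number. With 3 libraries per group these values cannot tell whether same-numbered samples shared an animal or a day. With the replicate block 1183 genes passed, 43 of the 49 among them. Low knockout counts limit Gins1, Mcm10 and Dscc1.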
